A study of Mus musculus with 16 samples.

Results

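Large H3K27me3 domains are wide stretches of chromatin that carry trimethylation of lysine 27 on histone H3, and here they were taken as the islands of the wild-type H3K27me3 list that lie on the 19 autosomes and are 10 kb or wider. Domains were thus chosen by their wild-type H3K27me3 width. An island is a region in which the authors' peak caller found an excess of sequencing reads. The rule selected 577 domains of 11593 autosomal islands, out of 19791 wild-type H3K27me3 islands on all chromosomes. The study profiled chromatin by ChIP-seq, the sequencing of DNA bound by an antibody, in mouse neural stem cells taken from telencephalic cortex at E14.5 of gestation, grown as neurospheres and then plated on Matrigel. Wild-type cells and Setd5+/- cells, heterozygous for Setd5, were each profiled for H3K4me1, H3K4me3, H3K27ac, H3K27me3, H3K36me2 and H3K36me3. A further library mapped V5-tagged SETD5 in cells labelled WT-S5V5. The labels do not state the strain, the number of embryos or lines, or how the mutation or the tag was made. Setd5 itself overlapped no domain, and islands do not measure the allele, so the genotype labels were not checked here.

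Each group had 1 library, so no difference below has a replicate check and none was tested. Reads inside the islands ranged from 1019278 to 5093126 per library. For H3K27me3 they numbered 1716115 on the wild-type autosomes and 1234686 on the Setd5+/- autosomes, with 42.2 and 40.4 Mb covered. H3K4me3 islands lay within 1 kb of an end of 10 of 12 neural stem cell markers in each genotype, the exceptions being Pax6 and Msi1, against 5 and 6 of 14 markers of microglia and blood and 6 and 4 of 15 of endothelium and mesenchyme. The share of all genes with H3K4me3 so placed is not given here, so these counts describe the lists and do not establish cell identity. Large H3K27me3 domains overlapped 0 of the 14 markers of microglia and blood and 1 of the 15 of endothelium and mesenchyme (Flt1), where 1.73% of all autosomal protein-coding genes overlapped one.

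H3K27me3 is deposited by Polycomb repressive complex 2 and is bound by Polycomb repressive complex 1. In neural progenitors it covers genes that specify other tissues, other body regions and later cell types, and it spreads into the widest domains over clusters of developmental transcription factor genes. H3K4me3 marks promoters and H3K27ac marks active promoters and enhancers. H3K27ac and H3K27me3 modify the same lysine and cannot share a histone tail.

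Polycomb domains in mammals are known to centre on promoters rich in CG dinucleotides. The sequences below are the 250 bases before the annotated start sites of 6 homeobox genes inside the domains, shown because 4 of them had no H3K27me3 island in the Setd5+/- list and 2 had one. They are from RefSeq on GRCm38.p6, read 5′ to 3′ on the strand of the gene, with each CG in capitals. The stretches are En1 at chr1:120602237-120602486 (plus strand), Otx2 at chr14:48665110-48665359 (minus), Hoxa3 at chr6:52213068-52213317 (minus), Dlx1 at chr2:71529195-71529444 (plus), Six6 at chr12:72939632-72939881 (plus) and Hoxd3 at chr2:74711743-74711992 (plus).
En1 promoter: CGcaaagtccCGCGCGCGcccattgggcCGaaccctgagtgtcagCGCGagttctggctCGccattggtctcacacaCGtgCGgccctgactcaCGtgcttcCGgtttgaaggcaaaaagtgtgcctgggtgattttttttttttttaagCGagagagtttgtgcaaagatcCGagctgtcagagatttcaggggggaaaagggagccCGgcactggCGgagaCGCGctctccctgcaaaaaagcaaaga
Otx2 promoter: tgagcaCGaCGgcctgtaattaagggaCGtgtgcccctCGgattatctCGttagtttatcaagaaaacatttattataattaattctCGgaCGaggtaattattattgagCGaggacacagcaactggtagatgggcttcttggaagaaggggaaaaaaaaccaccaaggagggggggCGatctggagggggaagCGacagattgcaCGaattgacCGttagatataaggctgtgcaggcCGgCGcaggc
Hoxa3 promoter: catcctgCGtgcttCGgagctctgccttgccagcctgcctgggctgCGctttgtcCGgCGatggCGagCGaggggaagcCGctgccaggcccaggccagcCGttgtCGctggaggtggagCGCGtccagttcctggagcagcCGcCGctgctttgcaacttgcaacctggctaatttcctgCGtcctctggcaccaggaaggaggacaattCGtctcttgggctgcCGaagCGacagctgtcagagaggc
Dlx1 promoter: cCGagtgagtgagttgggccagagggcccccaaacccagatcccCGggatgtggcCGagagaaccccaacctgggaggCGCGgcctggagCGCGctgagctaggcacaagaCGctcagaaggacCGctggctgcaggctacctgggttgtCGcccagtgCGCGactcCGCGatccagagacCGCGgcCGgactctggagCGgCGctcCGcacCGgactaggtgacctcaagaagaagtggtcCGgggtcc
Six6 promoter: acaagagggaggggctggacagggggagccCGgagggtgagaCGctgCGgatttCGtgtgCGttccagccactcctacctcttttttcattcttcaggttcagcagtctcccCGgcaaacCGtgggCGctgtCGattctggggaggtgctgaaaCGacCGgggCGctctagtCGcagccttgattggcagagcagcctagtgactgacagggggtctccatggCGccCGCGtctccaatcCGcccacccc
Hoxd3 promoter: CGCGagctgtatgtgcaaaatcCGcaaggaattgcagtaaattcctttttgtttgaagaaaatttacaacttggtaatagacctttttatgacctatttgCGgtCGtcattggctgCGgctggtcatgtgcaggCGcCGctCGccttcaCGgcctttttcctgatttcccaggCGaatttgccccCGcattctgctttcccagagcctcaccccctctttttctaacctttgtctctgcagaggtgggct

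These stretches hold 19 (En1), 14 (Otx2), 18 (Hoxa3), 22 (Dlx1), 17 (Six6) and 12 (Hoxd3) CG dinucleotides. All 6 start sites lay under a wild-type H3K27me3 island. At En1, Otx2, Hoxa3 and Dlx1 no Setd5+/- H3K27me3 island covered the start site and a Setd5+/- H3K4me3 island did, while at Six6 and Hoxd3 the H3K27me3 island was present in both genotypes and no H3K4me3 island in either. Dlx1 also had H3K4me3 at the start site in wild type. Setd5+/- H3K27ac covered the start sites of En1, Hoxa3 and Dlx1, and wild-type H3K27ac covered none of the 6. Otx2 has 4 windows in the RefSeq table, and the others of the 4 had neither H3K4me3 nor H3K27ac in either genotype.

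RefSeq promoter windows, from 250 bases before to 50 bases after a start site, were found for 261 of the 358 protein-coding genes that overlap a domain. In 172 of these genes a start site lay inside a domain. Their 202 windows of 300 bases held a median of 16 CG dinucleotides against 14 in all 20085 autosomal windows, and the median ratio of observed to expected CG was 0.647 against 0.586. The ratio reached 0.6 in 56.4% of the windows inside domains and in 48.9% of all windows. Promoter CG content inside the domains was thus above that of all promoters by a small margin.

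The domains had a median width of 14.8 kb, with quartiles of 11.6 and 21.6 kb, and reached 125 kb. They made up 4.98% of the autosomal wild-type islands, 25.9% of the covered length (10.9 Mb) and 42.5% of the reads (729209). Read density had a median of 57.0 reads per kb and ranged from 26.3 to 210, against a median of 27 in the 11016 narrower autosomal islands. Since width chose the domains, these values describe them and support nothing. The threshold did not fall at a natural break. The 14 islands of exactly 10.0 kb had a median of 42.4 reads per kb and were 65.7% covered in the Setd5+/- list, and the 22 islands of 9.8 kb had 39.9 reads per kb and were 67.1% covered.

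The widest domain lay over Six6, a homeobox gene of eye development (chr12:72844601-72969600, 125 kb, 90.1 reads per kb). A domain of 113.6 kb at Iqch (chr9:63430601-63544200) was followed by 83.6 kb over Hoxc8 to Hoxc4, 81.6 kb over Twist1, a mesoderm and neural crest regulator, and 70.8 kb at Mab21l2, a gene needed for eye development. An 87.8 kb domain at chr8:123537401-123625200 overlapped no protein-coding gene. The densest domains were of another kind. They lay at chr13:120020201-120042200 (210 reads per kb), over predicted genes, at chr2:77970001-77996000 (207 reads per kb), with no gene, and at Raet1e (192 reads per kb), and only then came the Hoxa3 to Hoxa4 domain (127 reads per kb) and its neighbour over Hoxa3 to Hoxa13 (125 reads per kb).

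Of 20665 autosomal protein-coding genes, 358 overlapped a domain (1.73%), and 128 lay wholly inside one. A gene was present in 386 domains and none in 191 (33.1%). Genes of the 5 lists of developmental transcription factors overlapped 153 of the 577 domains. Hox and Evx genes, which pattern the body axis, were inside in 39 of 41 cases. Other homeobox regulators were inside in 64 of 99 cases, Pax and Fox regulators in 19 of 34, basic helix-loop-helix and zinc finger lineage regulators in 28 of 60, and T-box, Gata, Hand and Sox regulators in 10 of 31. These 5 lists gave 160 of 265 genes (60.4%) and 44.7% of all genes in domains. The lists were put together with earlier results of these data known, so their shares describe the lists and are no independent evidence.

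The homeobox genes outside the domains included Emx1, Emx2, Lhx2, Otx1, Pou3f2 and Pou3f3, regulators of the cortical progenitors themselves, and also Nkx2-2, Nkx6-1 and Gbx2, which pattern other regions. Pax6, Sox2, Sox9 and Sox1 likewise lay in no domain. Signalling genes were inside less often than the listed transcription factors, at shares above the 1.73% of all genes. Wnt ligands and Frizzled receptors gave 2 of 29 (6.90%, Wnt8b and Wnt16), and Hedgehog, Bmp, Fgf and retinoic acid genes gave 5 of 38 (13.2%, Shh, Fgf10, Fgf20, Gdf6 and Aldh1a2). Neural stem cell genes gave 2 of 25 (Gli3 and Prom1), synapse genes 1 of 30 (Slc32a1, the vesicular transporter of inhibitory neurons), and ribosomal protein genes 0 of 29. Among 7 cell cycle inhibitors only Cdkn2a, which encodes p16INK4a and ARF, was inside.

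**Figure D1:**
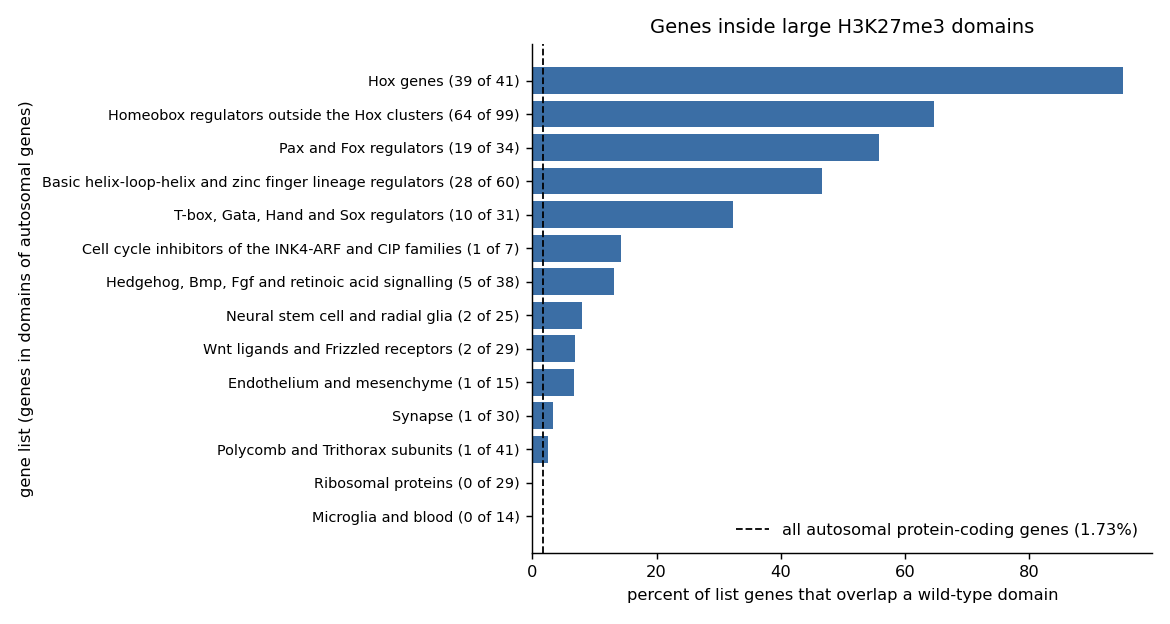
Percent of the autosomal genes of 14 gene lists that overlap a large wild-type H3K27me3 domain (horizontal axis), with the counts beside each list name. The dashed line is the 1.73% of all autosomal protein-coding genes, and the 5 transcription factor lists lie between 32.3% and 95.1%.

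Most of the domain length stayed under H3K27me3 in Setd5+/- cells. Setd5+/- islands covered 7.94 of 10.9 Mb (72.6%), and the median domain was 80.4% covered, with quartiles of 55.0 and 92.7%. At least 90% was covered in 178 domains, 50 to under 90% in 273, over 0 to under 50% in 80, and none in 46. The 126 domains covered under 50% were 21.8% of all (95% Wilson interval 18.7 to 25.4%), where 56.9% of all autosomal wild-type islands were covered under 50%. The 46 domains with no Setd5+/- island were 7.97% (6.03 to 10.5%), where 46.6% of all autosomal islands had none. These intervals cover counting error only, and neighbouring domains are not independent. An uncovered base is one where no island was called. It does not show that the mark was absent, since reads outside islands are not in the lists.

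Because the domains were chosen for width in the wild-type list, the same measure was taken in reverse. The Setd5+/- list held 365 autosomal islands of 10 kb or more, which spanned 6.09 Mb. Wild-type islands covered 80.5% of that length, with a median of 98.2%. They covered under 50% of 58 (15.9%, where 56.4% of all autosomal Setd5+/- islands were covered under 50%) and none of 26 (7.12%, where 51.5% of all had none). The shares of wide domains with no counterpart in the 2 directions were 7.97% and 7.12% (intervals of 6.03 to 10.5% and 4.91 to 10.2%). These intervals cover counting error only and do not compare the genotypes. Coverage under 50% was found in 21.8% of wild-type and 15.9% of Setd5+/- domains, and median coverage was 80.4% and 98.2%. At the fully covered end, 44.1% of the Setd5+/- domains lay wholly inside wild-type islands, and 5.37% of the wild-type domains wholly inside Setd5+/- islands. Of the 26 Setd5+/- domains with no wild-type island, 12 (46.2%) lay on chromosomes 1, 4 and 15, which held 103 of all 365 (28.2%).

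**Figure D2:**
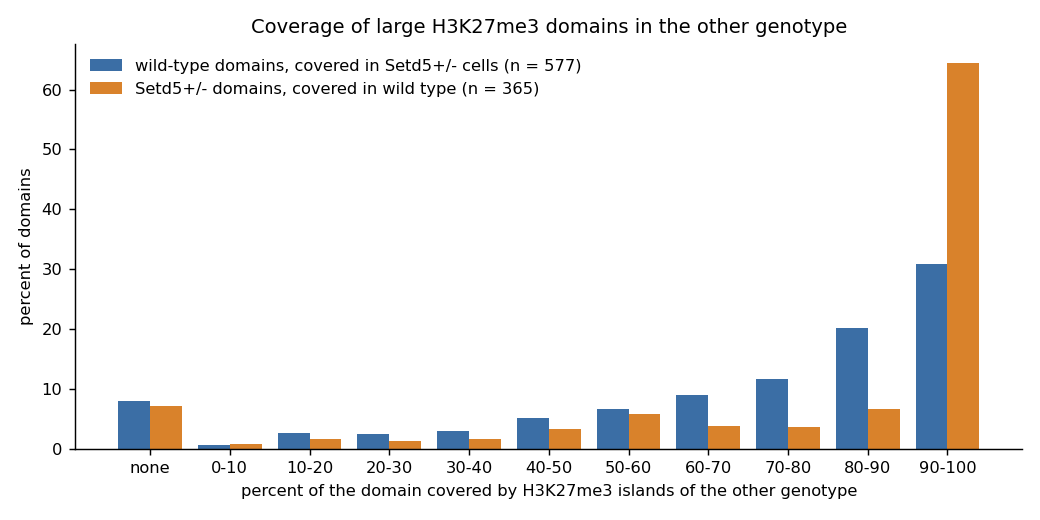
Percent of domains (vertical axis) by the percent of the domain that islands of the other genotype cover (horizontal axis, the class "none" apart). Blue bars are the 577 wild-type domains in the Setd5+/- list and orange bars the 365 Setd5+/- domains in the wild-type list, of which 64.4% were at least 90% covered against 30.8% of the wild-type domains.

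Wild-type domains were met by several Setd5+/- islands. Of the 577, 133 were met by 1 Setd5+/- island, 171 by 2 and 227 by 3 or more. The 398 met by 2 or more (69.0%) compare with 10.9% of all autosomal wild-type islands, most of which are far narrower (median 2.4 kb below 10 kb). In reverse, 106 of 365 Setd5+/- domains (29.0%) were met by 2 or more wild-type islands, where the share was 3.72% of all. The breaks were short. The 844 gaps between pieces had a median of 0.4 kb, which is the smallest gap either list contains, and 767 (90.9%) were 2 kb or less. When Setd5+/- islands were joined across 2 kb, 10.7% of domains were still met by 2 or more, and across 5 kb 2.08%. Most pieces were seen at Twist1 (14 pieces, 74.3% covered), Six6 (10 pieces, 97.1%), Iqch (10 pieces, 78.2%), Calcr, the calcitonin receptor gene (10 pieces, 85.2%), and Olig3, a neural tube regulator (9 pieces, 85.5%).

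Uncovered length lay at the domain ends, in gaps and in domains without any Setd5+/- island. Of the 2.99 Mb without Setd5+/- coverage, 24.4% lay in domains with none, 26.2% in gaps between pieces and 49.3% outside the outermost pieces of partly covered domains. Along the scaled domain, Setd5+/- islands covered 44.7% and 46.4% of domains in the outermost 20ths and up to 77.6% near the middle. Wild-type islands over Setd5+/- domains were more even, from 72.1% and 72.6% at the ends to 84.7%. Where a Setd5+/- island was present, the covered part held a median of 35.3 Setd5+/- reads per kb against 57.3 in wild type. The median ratio of Setd5+/- to wild-type reads per kb within a domain was 0.628, where all autosomal H3K27me3 island reads gave a ratio of 0.719. In reverse, over the 339 Setd5+/- domains with wild-type coverage, the median ratio of Setd5+/- to wild-type reads per kb was 0.706. Each ratio follows domains chosen for width in 1 of the lists, so the values are descriptions. The wild-type domains held 42.5% of the wild-type autosomal island reads and 26.1% of the Setd5+/- ones. How much of the trimming and splitting goes with the smaller number of Setd5+/- reads was not tested.

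**Figure D3:**
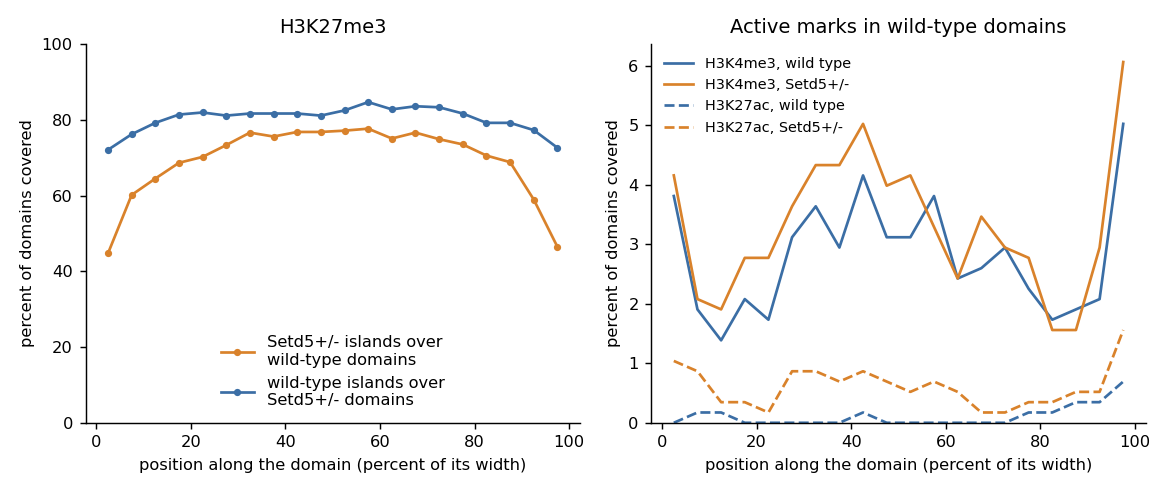
Left, percent of domains covered by H3K27me3 islands of the other genotype (vertical axis) at 20 positions along the domain (horizontal axis, percent of its width). Setd5+/- coverage of wild-type domains was 44.7% and 46.4% at the ends and wild-type coverage of Setd5+/- domains 72.1% and 72.6%. Right, coverage of the wild-type domains by H3K4me3 (solid lines) and H3K27ac (dashed lines) in each genotype.

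Wider domains were covered more fully. Setd5+/- islands covered 29.8% of the length of autosomal islands under 2 kb, 38.8% from 2 to 5 kb, 60.8% from 5 to 10 kb, 65.7% from 10 to 12 kb, 61.2% from 12 to 15 kb, 71.8% from 15 to 20 kb, 75.4% from 20 to 30 kb and 81.5% of the 69 domains of 30 kb or more. Read density was also higher in the wider classes above 10 kb, from a median of 44.6 to 81.7 reads per kb. The 46 domains with no Setd5+/- island had a median of 55.7 wild-type reads per kb and a range of 27.8 to 127, and the other 531 had a median of 57.3. Among those 531, the median was 48.2 in domains covered under 50%, 53.3 from 50 to under 90% and 65.8 at 90% or more. The part played by density was not tested.

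Coverage varied among chromosomes. It was 93.6% on chromosome 15 (19 domains) and 83.5% on chromosome 1 (32 domains), and 57.9% on chromosome 3 (36 domains) and 53.6% on chromosome 17 (7 domains). On chromosome 4, the 2 domains between 30 and 80 Mb were 97.5% covered and the other 27 were 61.4% covered. The 16 autosomes other than 1, 4 and 15 gave 71.3% over 497 domains, against 72.6% over all 577.

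Domains with a gene of the 5 transcription factor lists and the others were covered alike in length, 73.1% over 153 domains and 72.4% over 424. Complete absence was more frequent among the former, with 21 of 153 (13.7%) against 25 of 424 (5.90%). The former were also wider (median 20.6 against 13.6 kb) and denser (77.6 against 50.5 reads per kb). The lists were made with earlier results known, so this contrast is a description and no independent evidence. By list, Pax and Fox domains were 84.6% covered, Hox domains 83.1%, basic helix-loop-helix and zinc finger domains 74.0%, T-box, Gata, Hand and Sox domains 70.1%, and other homeobox domains 65.1%. The 64 domains at other homeobox genes held 12 of the 46 uncovered ones.

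The wholly uncovered domains included several master regulators of brain regions. Otx2, a homeobox gene of the forebrain and midbrain, had a wild-type domain of 42.8 kb with 3700 reads (chr14:48646001-48688800) and no Setd5+/- H3K27me3 island. En1, a homeobox gene of the midbrain and hindbrain, had 37.6 kb with 3155 reads in wild type (chr1:120590601-120628200) and none in Setd5+/- cells. The domain over Dlx1 and Dlx2, homeobox genes of inhibitory interneuron progenitors, had 29.2 kb with 2580 reads (chr2:71521801-71551000) and none. Each of the 3 was denser in wild type (83.9 to 88.4 reads per kb) than the median domain. The widest uncovered stretch of all was at Mab21l2 (chr3:86516201-86587000), where 70.8 kb and 7070 wild-type reads stood against a single Setd5+/- island of 2.0 kb with 42 reads, or 2.82% of the length.

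Further uncovered domains lay at Cdkn2a (28.4 kb, 67.1 reads per kb, chr4:89265201-89293600), Dbx1, a neural tube progenitor gene (23.8 kb), Gsx2, a regulator of the ventral telencephalon (21.6 kb), and Isl2, a motor neuron gene (17.6 kb, chr9:55532601-55550200). Ebf1 carried 3 domains of 21.6, 13.2 and 12.2 kb and none was met by a Setd5+/- island. An intergenic domain of 31.4 kb at chr3:118434401-118465800 was also uncovered. Foxd3, Pax7, Hand1, Hhex, Irx5, Irx6 and Nkx3-2, lineage genes of neural crest, muscle, heart, endoderm and skeleton among others, each had a domain of 12.4 to 15.4 kb with no Setd5+/- island. These 7 genes, Gsx2 and Ebf1 were picked for mention after their values were seen.

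Uncovered domains occurred both alone and beside other domains. Joined across 100 kb, the 577 domains formed 382 loci, 99 of them with 2 or more domains, and 40 loci held an uncovered one. Of the 99, 11 held an uncovered domain, a share close to the 40 of all 382 loci, and in 2 every domain was uncovered. These were Ebf1 (3 of 3) and at Gsx2 and the neighbouring receptor gene Pdgfra (2 of 2). At En2 and Cnpy1, 4 domains of 68.0 kb in all were 13.2% covered. The 2 domains that overlap En2, 10.6 and 15.4 kb wide, had no Setd5+/- island, the Cnpy1 domain of 26.0 kb was 7.69% covered, and the fourth, of 16 kb, was 43.8% covered.

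The best covered wide domains lay elsewhere. Domains of 20 kb or more at full coverage included the 83.6 kb over Hoxc8 to Hoxc4 (chr15:102988601-103072200, 7287 wild-type reads, within 1 Setd5+/- island of 106.2 kb), domains of 29.2 and 28.6 kb at Calca, the calcitonin gene, and 28.8 kb at Pkhd1l1 on chromosome 15. Pax3, a dorsal neural tube gene, was 96.4% covered over 61.8 kb (89.3 reads per kb), Lin28b, an RNA-binding regulator of developmental timing, 96.0% over 50.2 kb, and Aldh1a2, which makes retinoic acid, 86.8% over 62.2 kb. In width and density these domains overlapped the uncovered ones at Otx2 and En1.

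The 4 Hox clusters differed. Setd5+/- islands covered 98.5% of 150 kb in 3 domains over Hoxc genes, with a range of 96.2 to 100%. They covered 93.2% of 132.6 kb in 5 domains over Hoxb genes (81.3 to 98.3%) and 90.8% of 100.4 kb in 4 domains over Hoxd genes (82.5 to 94.4%). Over the Hoxa genes they covered 37.2% of 96.8 kb in 3 domains (0 to 52.8%). The Hoxa domains were among the densest in wild type, with 96.8, 125 and 127 reads per kb. Hoxc lies on chromosome 15, the most fully covered autosome (93.6% over 19 domains, the Hoxc ones among them). Whether the high Hoxc coverage belongs to the cluster or to its chromosome was not tested.

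Within Hoxa the coverage divided at a single position. The domain over Hoxa2 and part of Hoxa3 (chr6:52162201-52175800, 13.6 kb, 1317 wild-type reads) and that over Hoxa3 and Hoxa4 (chr6:52176201-52191200, 15.0 kb, 1909 reads) had no Setd5+/- H3K27me3 island. The third, over Hoxa3 to Hoxa13 (chr6:52192001-52260200, 68.2 kb, 8510 reads), was met by 1 Setd5+/- island of 36.2 kb with 2011 reads, which began 62.0 kb from the left end of the first domain. Hoxa2 to Hoxa7 lie to the left of that border, Hoxa9 spans it, Hoxa10 and Hoxa11 lie under the retained island, and Hoxa13 runs past its right end. Inside the 3 domains, the active marks of Setd5+/- cells were called on the left side. H3K4me3 covered 0.8, 0 and 1.8 kb of the 3 domains in wild type and 4.8, 4.8 and 11.8 kb in Setd5+/- cells. H3K27ac covered none of them in wild type and 7.0, 2.0 and 15.0 kb in Setd5+/- cells. The last H3K4me3 and H3K27ac islands of the left side began 58.6 and 58.0 kb from the same origin, before the border. No H3K4me3 or H3K27ac island was called in the Hoxb or Hoxd domains in either genotype, and the Hoxc domains held 1.0 kb of Setd5+/- H3K4me3 (33 reads).

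**Figure D4:**
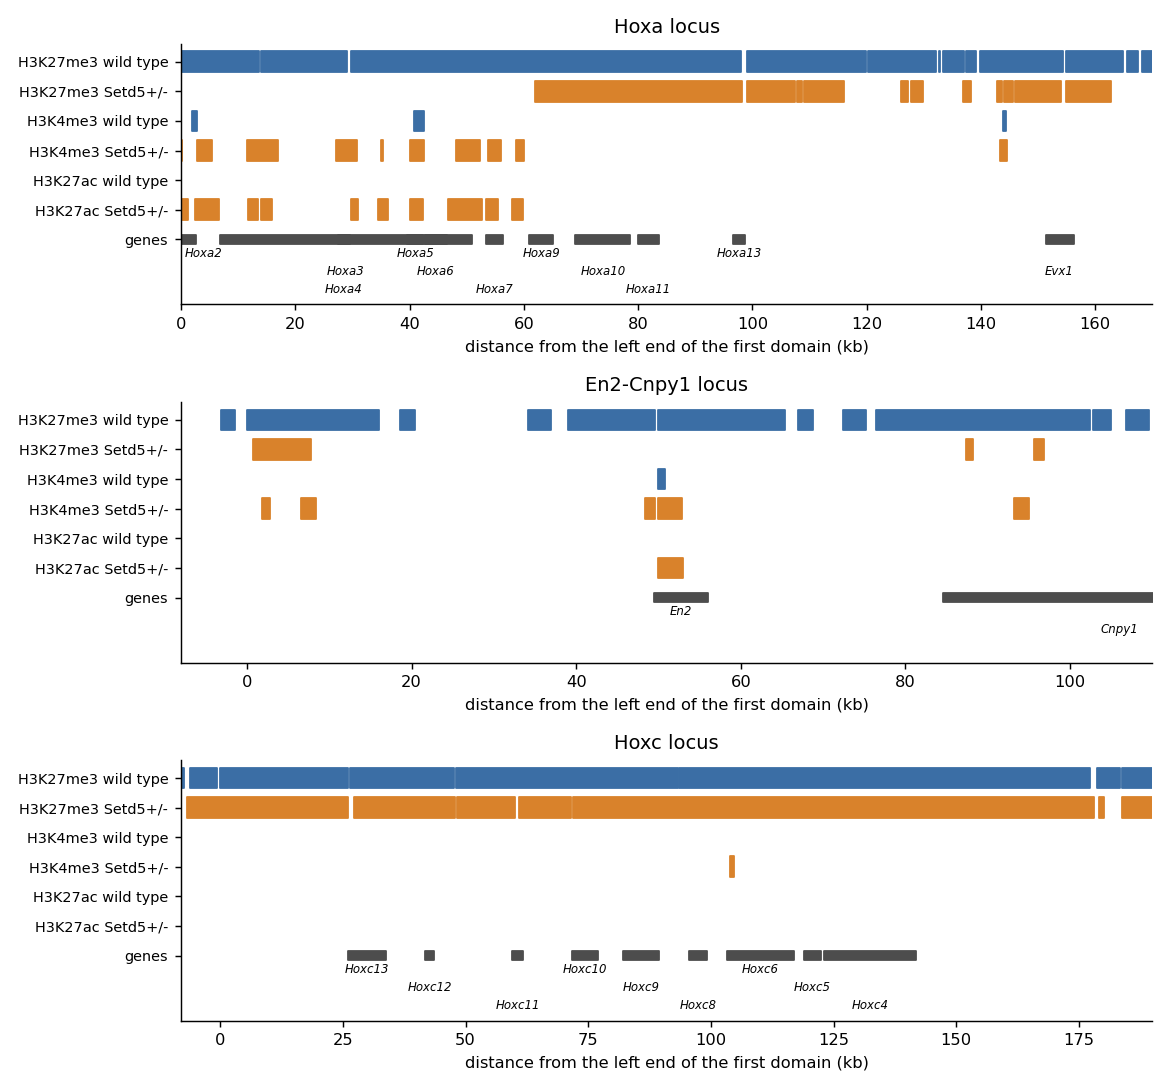
Islands of H3K27me3, H3K4me3 and H3K27ac in wild-type (blue) and Setd5+/- (orange) cells and protein-coding genes (grey) at the Hoxa, En2-Cnpy1 and Hoxc loci, with distance in kb from the left end of the first domain on the horizontal axis. At Hoxa the first Setd5+/- H3K27me3 island begins at 62.0 kb, and the Setd5+/- H3K4me3 and H3K27ac islands inside the 3 domains over Hoxa genes lie to its left, while 1 further H3K4me3 island (70 reads) lies at 143.4 kb, at En2-Cnpy1 3 short Setd5+/- H3K27me3 islands remain, and at Hoxc both genotypes are covered.

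H3K4me3 islands were embedded in a minority of domains. In wild type 169 domains held one (29.3%, where 11.7% of all autosomal wild-type H3K27me3 islands did), over 271 kb or 2.48% of the domain length. Most of those autosomal islands are far narrower and offer less room for an H3K4me3 island. In Setd5+/- cells 175 domains held one, over 344 kb or 3.14%. An island was present in both genotypes in 138 domains, in wild type only in 31 and in Setd5+/- cells only in 37. The embedded islands were weaker than the rest. The 204 wild-type H3K4me3 islands that meet a domain had a median of 45.9 reads per kb against 80.0 elsewhere, and the 233 Setd5+/- ones had 53.8 against 82.5. Of these, 144 and 168 lay wholly inside a domain.

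A domain was said to gain a mark when Setd5+/- islands covered 1 kb or more beyond the wild-type length, and to lose it in the reverse case. H3K4me3 was gained in 46 domains (7.97%, where 0.845% of all autosomal wild-type H3K27me3 islands gained it) and lost in 34 (5.89%, where the share was 1.22%). A narrow island offers little room for 1 kb, so those shares are low for both directions. The Setd5+/- H3K4me3 list was also longer, at 45.2 against 42.0 Mb on the autosomes. With the 2 lists reduced to equal covered length, 37 domains gained and 39 lost H3K4me3, so the excess of gains over losses did not hold. The covered length inside the domains was still 25.6 kb more in Setd5+/- cells, against 72.8 kb with the lists as deposited.

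Gains were most frequent in domains with no Setd5+/- H3K27me3 island. H3K4me3 was gained in 13 of the 46 uncovered domains (28.3%), in 9 of 80 covered under 50% (11.2%), in 18 of 273 covered from 50 to under 90% (6.59%) and in 6 of 178 covered 90% or more (3.37%). Over the 46 uncovered domains H3K4me3 covered 6.76% of the length in wild type and 10.6% in Setd5+/- cells. Losses were also most frequent in the uncovered class, at 10.9%, but showed no steady order, with 5.00, 5.13 and 6.18% in the following classes. Of the 46 uncovered domains, 24 already held wild-type H3K4me3. Domains that already held H3K4me3 in wild type were uncovered in 24 of 169 cases (14.2%), and those without it in 22 of 408 (5.39%).

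Domains with a listed transcription factor gene gained H3K4me3 more often than the others. Of the 153 domains with a gene of the 5 lists, 25 gained H3K4me3 (16.3%), against 21 of the other 424 (4.95%). The 153 were also wider, and wide domains gained more often. The share was 4.43% from 10 to 12 kb, 5.26% from 12 to 15 kb, 11.1% from 15 to 20 kb and 9% from 20 to 30 kb. It was highest from 30 kb. The part played by width was not tested, and the lists were made with earlier results known. En1 held no H3K4me3 in wild type, while Setd5+/- cells had 7.2 kb in 3 islands of 94, 278 and 232 reads. In Otx2 there was none in wild type, and 2.2 kb with 138 reads was called in Setd5+/- cells. Nr2f2, an orphan nuclear receptor gene, went from none to 5.2 kb in a domain that was still 67.2% covered by H3K27me3. These 3 domains went from no H3K4me3 island to at least 1.

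At other genes a weak wild-type island stood where a stronger Setd5+/- island did. The Isl2 domain had 1.6 kb with 54 reads in wild type, and in Setd5+/- cells 3.0 kb with 413 reads. The En2 domain had 0.8 kb with 24 reads and 2.8 kb with 353 reads. Dlx1 and Dlx2 had 3.0 kb with 38 and 103 reads in wild type, and 6.6 kb in 4 islands of 362, 77, 35 and 246 reads in Setd5+/- cells. These domains were named for their gains of H3K4me3 or H3K27ac, so the differences describe them. Total autosomal H3K4me3 island reads were 4537175 in wild type and 4969248 in Setd5+/- cells. The Cdkn2a domain differed in that part of its wild-type H3K4me3 met no Setd5+/- island. It had 3.0 kb of wild-type H3K4me3 in 3 islands. An island of 1.6 kb with 105 reads covered the Cdkn2a start site found inside the domain and met no Setd5+/- island. The others, of 67 and 368 reads, lay within a Setd5+/- island of 10.4 kb and 1211 reads. That Setd5+/- island held all 7.4 kb of Setd5+/- H3K4me3 in the domain, extends past the domain and does not reach that start site.

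Some gains were of another kind. The 87.8 kb domain at chr8:123537401-123625200, with no protein-coding gene, held 5.0 kb of H3K4me3 in 4 wild-type islands and 26.6 kb in 20 Setd5+/- islands, while H3K27me3 still covered 98.2% of it. Its gain alone was 21.6 kb. The 20 Setd5+/- islands were weak, with 25 to 69 reads each and 22.1 to 40.0 reads per kb. The 4 wild-type islands held 23 to 43 reads each. A domain at chr8:20527401-20541800, also without a gene, held 10.4 kb in Setd5+/- cells and none in wild type. Its Setd5+/- H3K4me3 and H3K27me3 islands had 67.2 and 61.8 reads per kb. This domain lay within a SETD5-V5 island of 219.2 kb with 63.8 reads per kb, where the autosomal SETD5-V5 median was 17.8. Whether the locus is high whatever the antibody was not tested. Without the domains that hold no protein-coding gene, Setd5+/- cells had 36.6 kb more H3K4me3 than wild type inside the domains, and gains exceeded losses by 7 domains rather than 12. Losses of 2 kb or more were 8, among them Sp8, a cortical patterning gene (9.2 and 3.2 kb, wild type first, with 89.0% H3K27me3 coverage), Six3, a forebrain homeobox gene (6.6 and 3.8 kb, 20.9%), Neurog2, a proneural gene (3.4 and 1.4 kb, 100%), and Tenm4, a teneurin gene (3.8 and 0 kb, no H3K27me3). These 4 were chosen for mention after their values were seen.

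H3K27ac was rare inside the domains and more frequent in Setd5+/- cells. It was present in 9 domains over 10.6 kb in wild type (1.56%, where 0.69% of all autosomal wild-type H3K27me3 islands had it) and in 21 domains over 64.4 kb in Setd5+/- cells. It was gained in 13 domains (2.25%, where 0.38% of all islands gained it) and lost in 2 (0.347%, where 0.242% did), at Zfhx4 and Glce. As for H3K4me3, a narrow island offers little room for 1 kb, so the shares of all islands are low. The whole Setd5+/- H3K27ac list was longer too, at 39.2 against 35.7 Mb on the autosomes. Of the 13 gains, 10 were in domains with no Setd5+/- H3K27me3 island, and 10 also gained H3K4me3. H3K27ac covered 0.164% of the length of the 46 uncovered domains in wild type and 5.01% in Setd5+/- cells, against 0.0771 and 0.134% of domains covered 90% or more.

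The Hoxa domains contributed 24.0 kb of the Setd5+/- H3K27ac. Without the 7 domains of the Hoxa cluster, 10 domains gained H3K27ac and the difference between genotypes was 29.8 kb rather than 53.8 kb. Cdkn2a had 6.8 kb of Setd5+/- H3K27ac and none in wild type. En1 had none and 3.2 kb, in islands of 26 and 41 reads, En2 none and 3.0 kb with 57 reads, Isl2 none and 2.6 kb with 42 reads, and Dlx1 and Dlx2 none and 1.0 kb with 24 reads. Nr5a2, a nuclear receptor gene whose 11.6 kb domain was uncovered, had none and 2.4 kb with 56 reads. These islands hold few reads each. An intergenic domain of 10.2 kb at chr8:109241801-109252000, also uncovered, had 1.2 and 7.4 kb of H3K27ac and 4.6 and 6.8 kb of H3K4me3. The Mab21l2 domain had neither mark in either genotype, so the domain with the longest uncovered stretch was one in which neither active mark was called.

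**Figure D5:**
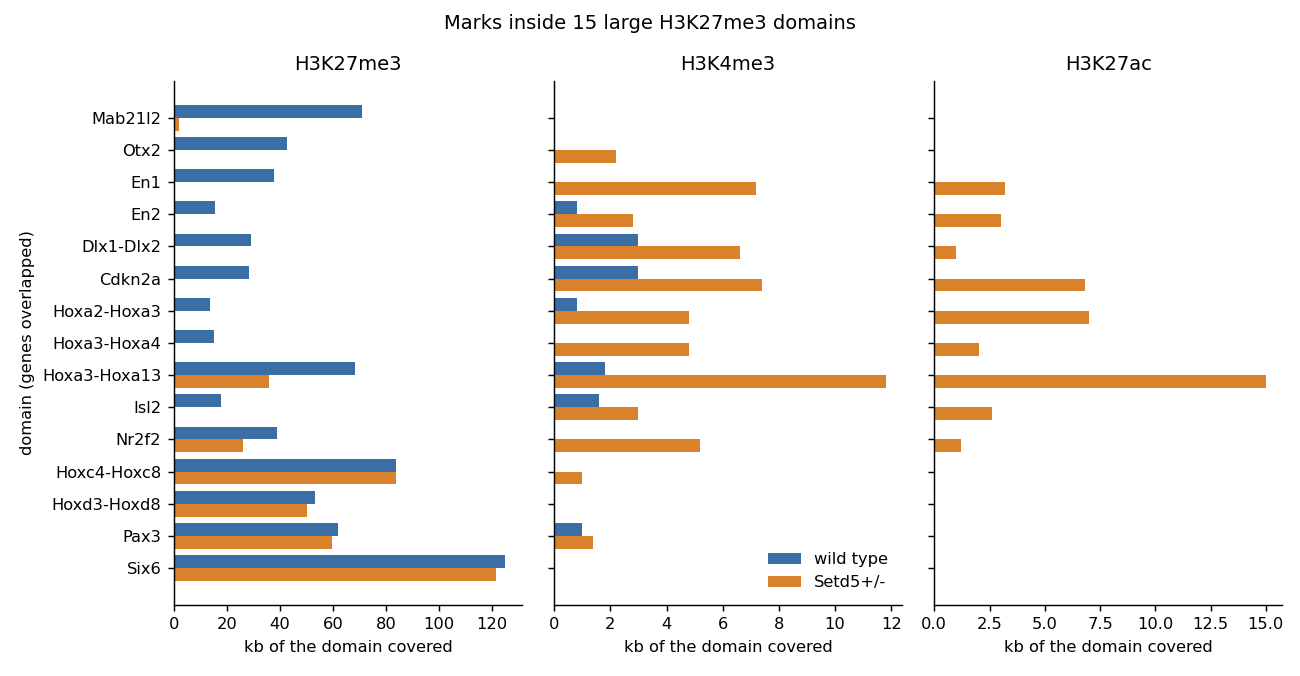
Length in kb (horizontal axes) under H3K27me3, H3K4me3 and H3K27ac islands in wild-type (blue) and Setd5+/- (orange) cells inside 15 large domains named by their genes. The 15 were picked by hand from the named domains, some of which were ranked by their gain of H3K27ac, so the rows do not represent all domains. The 4 lowest rows, Hoxc4-Hoxc8, Hoxd3-Hoxd8, Pax3 and Six6, were at least 94.4% covered by Setd5+/- H3K27me3. In the upper rows all but Mab21l2 and Otx2 carried H3K27ac in Setd5+/- cells and none in wild type. Of all 46 domains with no Setd5+/- H3K27me3 island, 10 gained H3K27ac.

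At the level of start sites, 172 genes began inside a domain. Their start site was under a Setd5+/- H3K27me3 island in 109 and not in 63. H3K4me3 covered the start site of 41 in wild type and 39 in Setd5+/- cells, with 10 in wild type only and 8 in Setd5+/- cells only. Among the 63 without Setd5+/- H3K27me3, H3K4me3 was present at 20 in wild type and at 21 in Setd5+/- cells. It was present at 21 and 18 of the other 109. Start sites without the H3K27me3 island thus did not in general carry H3K4me3. H3K27ac covered 2 start sites in wild type against 7 in Setd5+/- cells. The 6 with it in Setd5+/- cells only were all among the 63. All 172 start sites lay under wild-type H3K27me3 by choice of the domains. Shares over all start sites are not given here, so these counts are descriptions and show nothing particular to the domains.

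H3K4me1, a mark of enhancers, was less frequent inside the domains in Setd5+/- cells. It was present in 116 domains in wild type (20.1%, where 8.98% of all autosomal wild-type H3K27me3 islands had it) and in 58 in Setd5+/- cells. It was gained in 21 domains (3.64%, where 0.906% of all gained it) and lost in 55 (9.53%, where 2.51% did). For this mark and those below, narrow islands again offer little room for 1 kb. The whole autosomal H3K4me1 list was shorter as well, at 48.1 Mb against 66.3 Mb in wild type. H3K36me3, a mark of transcribed gene bodies, was present in 7 domains in wild type (1.21%, where 0.414% of all islands had it) and 8 in the Setd5+/- list, and H3K36me2 in 1 (0.173%, where 0.397% had it) and 4. Each of the 2 was gained in 3 domains (0.520%), where 0.173% of all islands gained H3K36me3 and 1.29% gained H3K36me2. H3K36me3 was lost in 2 (0.347%, where 0.155% lost it) and H3K36me2 in 0 (where 0.19% lost it). H3K36me2 in Setd5+/- cells covered all 26.0 kb of the domain at chr2:77970001-77996000, which holds no gene and was 100% covered by Setd5+/- H3K27me3. The H3K36me2 island there had 240 reads per kb and the Setd5+/- H3K27me3 island 169, where the autosomal list medians were 19.1 and 25.7. Whether this locus is high whatever the antibody was not tested. Setd5+/- H3K36me2 also covered 9.0 kb of the En1 domain and 8.6 kb of the Nr5a2 domain.

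SETD5-V5 islands met 15 domains (2.60%, where 1.55% of all autosomal wild-type H3K27me3 islands met one). All 9 domains between 19.7 and 20.8 Mb on chromosome 8, that at chr8:20527401-20541800 among them, were wholly covered by SETD5-V5. They were 13.0 to 60.2 kb wide, had 50.7 to 67.2 reads per kb, overlapped no protein-coding gene in 6 cases, and were 88.8% covered by Setd5+/- H3K27me3. They held 73.4% of the SETD5-V5 length and 75.7% of the wild-type H3K36me3 length inside all domains. The other 6 lay at Chil3, Chil4 and Abhd3 and at 3 intergenic positions, among them the second densest domain at chr2:77970001-77996000. The SETD5-V5 island at that domain had 201 reads per kb, where the autosomal list median was 17.8. None of the domains at Otx2, En1, Dlx1, Cdkn2a, Mab21l2 or the Hox clusters met a SETD5-V5 island.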

How the data were processed

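ChIP-seq libraries were read as single reads of 50 bp after 14 PCR cycles, per the labels' protocols. The submitters' processing notes name FastQC, Bowtie2 2.2.3, the GRCm38 build and SICER 1.1, which calls islands. The authors deposited, per island, a whole number that was read as counts of reads from its values, since no header names it. No normalisation and no use of the 3 inputs is recorded, so depth outside islands is unknown. Per the file headers, windows were 800 bp, gaps 2400 bp and the FDR 0.01 for the H3K36 and V5 lists, and the other lists have widths in multiples of 200 bp. Whether the separate lists used other settings is not given in the sources used here.

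Overlaps of at least 1 bp, covered lengths and 95% Wilson intervals were computed with Python 3.11.15, pandas 2.3.3, numpy 2.4.6 and scipy 1.17.1, and figures with matplotlib 3.10.9. There were 25 alternatives listed at the outset and 8 added after seeing the data. The overlap steps read back 100% of simulated losses, splits and trims. Intervals treat islands as independent, and reads carried no molecular identifiers. Genes came from the RefSeq annotation of GRCm38.p6. Named domains were the 15 widest, the 10 with most length uncovered, the 5 best covered of 20 kb or more, the 5 with most pieces, the 10 with most H3K4me3 and H3K27ac gained and the 5 densest, and exceptions are stated. The members, lists and tests were chosen with earlier results of these data known. Predicted genes gave no domain its name. Some items are not reported here.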

Additional observations from a re-analysis of the deposited data

How the results depend on the processing

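Of 93 alternative values, 59 stayed close to the reported one, 33 moved and 1 reversed. A minimum width of 15 kb gave 286 domains, 232 genes, 76.9% of the length covered in Setd5+/- cells, 16.1% of domains covered under 50%, 5.59% with none, 77.3% met by 2 or more Setd5+/- islands, and 81.7% of Setd5+/- domain length covered in wild type. A minimum of 8 kb gave 71.2% and, in reverse, 79.8%. Joining islands across 2 kb gave 1017 domains of 22.3 Mb, 67.0% covered, 32.6% covered under 50%, and 69.6% in reverse. Joining only the Setd5+/- islands left 10.7% of domains in pieces, and across 5 kb 2.08%. Without the 25% of islands lowest in reads per kb, coverage was 70.8%, domains under 50% were 25.6%, the reverse coverage was 79.2%, H3K4me3 gains exceeded losses by 25 domains, and 1 domain lost H3K27ac. Without chromosomes 1, 4 and 15 the values were 71.3% and, in reverse, 85.3%, and the H3K4me3 excess was 5. A limit of 25% in place of 50% gave 12.7% of domains. A gain or loss of 2 kb or more gave 19 H3K4me3 gains, 8 losses and 0 H3K27ac losses. With lists of equal covered length the H3K4me3 excess reversed to -2 domains and the difference was 25.6 kb. Genes wholly inside numbered 128. In alternatives chosen after seeing the data, leaving out domains without a gene gave an H3K4me3 excess of 7 and a difference of 36.6 kb, and leaving out the Hoxa cluster an H3K27ac difference of 29.8 kb. The causes were not tested.

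No paired analysis was possible because each group has 1 library and the labels carry no replicate numbers. Island lists hold no reads below the caller's threshold, so an uncovered domain can still carry the mark at a lower level. Island reads and covered length differed between the lists and were not normalised. Domains are not replicates of a genotype.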
